A study of Mus musculus with 36 samples.

Results

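The comparison described here sets the forebrain of stg-/- mice against the forebrain of stg+/+ mice of the same line, 3 arrays against 3, out of 36 arrays in 12 groups of 3. The arrays were taken by the genotype and tissue in their labels, and all probe sets outside the array's own controls were compared, 45037 in number. The other groups are the cerebellum of the same 2 genotypes and both tissues of the tg and lh lines. Total RNA was hybridised to 1-colour mouse expression arrays, on which a gene is read by 1 or more probe sets. The labels name no strain, age or sex, and no treatment other than sacrifice. Their wording calls the stg+/+ animals mutant mice as well, and the group is taken here by its +/+ genotype. They do not say whether each array is a separate animal or whether forebrain and cerebellum came from the same mice, so the p-values measure only the spread between these arrays.

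The symbol stg is read as stargazer, because Cacng2 has stargazer and stg among its synonyms in the RefSeq gene table and because Cacng2 was the transcript that fell in these mice. Stargazer mice carry a retrotransposon insertion in an intron of Cacng2 and have absence seizures, ataxia and head tossing. Cacng2 encodes stargazin, the founding member of the transmembrane AMPA receptor regulatory proteins (TARPs), which carry AMPA-type glutamate receptors to the synapse and slow their closing, and which were first described as gamma subunits of voltage-gated calcium channels. Cerebellar granule cells depend on stargazin almost alone, whereas forebrain neurons also express the related TARPs gamma-3, gamma-4 and gamma-8, encoded by Cacng3, Cacng4 and Cacng8. The spike-and-wave discharges of absence seizures arise in the loop between cortex and thalamus, which a forebrain sample includes in part or in whole. The comparison therefore asks which transcripts differ in the tissue where the seizures run when Cacng2 is lost.

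The 6 arrays were alike in their overall signal. The deposited intensities had a trimmed mean of 150 on each array, and array pairs correlated at 0.959 to 0.976 within a group and at 0.957 to 0.975 between the groups. Xist and Eif2s3y, read on each array, gave 2 females and 1 male in each group, the male being replicate 3 in both. The 2 male arrays correlated at 0.975 with each other, whereas stg-/- replicate 3 correlated at 0.965 and 0.963 with the other stg-/- arrays. The difference between the 3' and the 5' probe sets of Actb, a sign of RNA integrity, was 0.776, 0.792 and 0.685 in stg-/- forebrain, against 1.14, 0.839 and 0.836 in stg+/+ forebrain on the log2 scale (exact permutation p = 0.1, two-sided, the smallest that 3 against 3 allows). That of Gapdh overlapped between the groups (exact permutation p = 0.6). The part of these differences in the results was not tested.

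Pituitary transcripts were present on 2 of the 3 stg+/+ arrays. Gh, growth hormone, had 30.1, 3.83 and 78.4 in stg-/- forebrain, against 2603, 2102 and 25.9 in stg+/+ forebrain. Prl, prolactin, had 35.1, 8.17 and 35.5 in stg-/- forebrain, against 2546, 2086 and 18.2 in stg+/+ forebrain. Cga, the subunit that the glycoprotein hormones share, had 3.90, 4.45 and 5.29 in stg-/- forebrain, against 107, 86.1 and 3.95 in stg+/+ forebrain. The 12 pituitary genes on the array summed to 443, 319 and 491 in stg-/- forebrain, against 5888, 4767 and 524 in stg+/+ forebrain, so that the third stg+/+ array lay beside the stg-/- arrays and the other 2 far above them. Among the remaining forebrain arrays of the series Gh lay between 3.44 and 176 on 15 and at 3526 on 1, an lh+/+ array. Cerebellar transcripts also varied, without following the genotype. Pcp2, a Purkinje cell gene, had 127, 109 and 2.25 in stg-/- forebrain, against 202, 45.8 and 40.5 in stg+/+ forebrain. Of 140 genes refitted without the 2 stg+/+ arrays of high Gh and Prl, each with a difference of 0.1 or more with them, 29 then lay further from 0 by over 1.5 times, and 54 lay nearer to 0 by as much or had the other sign. That fit rests on 1 stg+/+ array, replicate 3, a male, set against 2 female and 1 male stg-/- arrays. Replicate 3 correlated at 0.959 with each of the other 2 stg+/+ arrays and at 0.975 with stg-/- replicate 3. In that fit the loss of pituitary transcripts cannot be told apart from sex or other traits of this array. The values of the fit are given beside most of the differences they move, and the part of pituitary tissue in the differences was not tested.

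**Figure D1:**
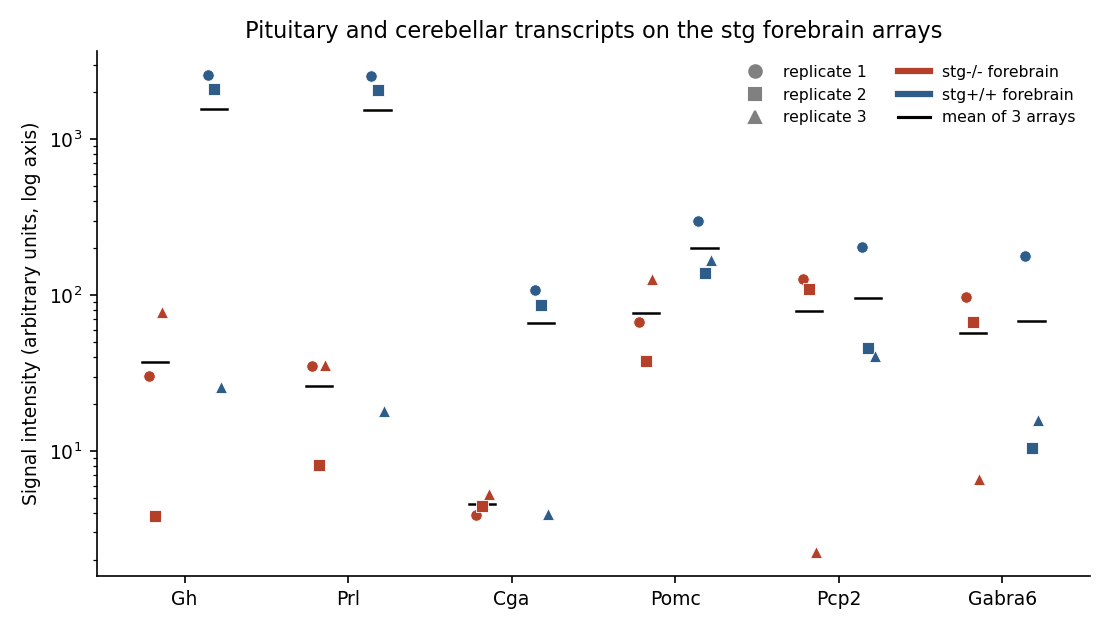
Signal of 4 pituitary genes (Gh, Prl, Cga, Pomc) and 2 cerebellar genes (Pcp2, Gabra6) on each stg forebrain array, in arbitrary intensity units on a log axis, with the symbol giving the replicate and the bar the mean of 3 arrays. Gh and Prl lie at 2086 or above on stg+/+ replicates 1 and 2 and at 78.4 or below on the other 4 arrays, whereas Pcp2 and Gabra6 spread widely within both groups.

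Cacng2 was close to the floor of the array in stg-/- forebrain. The probe set with the larger change had signals of 6.93, 4.41 and 1.59 in stg-/- forebrain, against 256, 305 and 235 in stg+/+ forebrain. Its other bright probe set had 33.5, 16.2 and 31.9 in stg-/- forebrain, against 383, 319 and 357 in stg+/+ forebrain. All 6 values of stg-/- forebrain lay at 33.5 or below and all 6 of stg+/+ forebrain at 235 or above, so the groups were far apart. On the scale of log2(signal + 2.98), on which all differences here are given, Cacng2 fell by 5.26 (SE 0.22, limma adjusted p = 8.49e-11) at the first probe set and had a difference of -3.61 (SE 0.18, adjusted p = 7.22e-10) at the other. Because the stg-/- signals of the first lie near the added constant, the size of its difference depends on it: it was -5.78 with a constant of 1 and -3.79 with a constant of 16. Another probe set was dim in both groups, with 8.0, 12.1 and 11.3 in stg-/- and 13.2, 15.9 and 15.3 in stg+/+ forebrain, and did not pass the filter on low values. The signal left at the other bright probe set, with a mean of 27.2, was higher than that left at the first, with a mean of 4.31, but the brightness of different probe sets is not a measure of amount, and how much RNA it stands for is unknown here.

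The fall of Cacng2 was set against the other lines by taking the stg difference minus the mean of the tg and lh differences. These were -5.15 (SE 0.27, adjusted p = 4.54e-09) and -3.60 (SE 0.22, adjusted p = 2.69e-08), and these 2 probe sets were the only ones of 27022 that passed that test (0.0074%). In tg forebrain the difference of the first probe set was -0.26 and in lh forebrain 0.034. In cerebellum the same probe set had 3.91 ± 1.28 in stg-/- cerebellum and 636 ± 188 in stg+/+ cerebellum (SD, n = 3 each), a difference of -6.51 (adjusted p = 8.00e-13). The sizes of the 2 falls are not compared, since the stg-/- signal was near the constant in both tissues.

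Beyond Cacng2, very little passed the test in forebrain. Of 27022 probe sets bright enough to be tested, 3 had an adjusted p under 0.05 (0.0111%), all of them lower in stg-/- forebrain and 2 of them Cacng2. At an unadjusted p under 0.05 there were 690 (2.55%), 364 higher and 326 lower, and the 3 stg-/- arrays did not overlap with the 3 stg+/+ arrays in 2014 (7.45%). Both shares lie below those of exchangeable arrays, 0.05 for such a p and 0.1 for full separation of 3 from 3. Lack of overlap is therefore given for single genes as a description and not as a sign of a difference. The differences were balanced, with 13630 probe sets above 0 and 13392 below and a median of 0.0019. Only 89 probe sets (0.329%) differed by more than 1 on the log2 scale, and 80 of these were among the dimmest of 3 equal parts of the probe sets. In the cerebellum of the same genotypes 352 probe sets passed (1.3%), and in the forebrain of the tg and lh lines 51 (0.189%) and 4 (0.0148%) did.

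The count of 3 moved when the 2 stg+/+ arrays of high Gh and Prl were left out. Then 8 probe sets passed, among them both of Cacng2 but not Arhgap39. The added genes were Arhgap26 at -3.09, Slc6a4, the serotonin transporter, at 2.76, Prdx2 at 3.03, Msi2 at 2.62 and Lypd1 at 2.68, with 1 probe set that has no single gene symbol here. In that fit stg+/+ forebrain is a lone array whose spread is taken from the remaining groups, and the added genes rest on its values. They were chosen for mention after their values were seen.

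The arrays could show changes of some sizes and not of others. With the probe sets split by mean signal into 3 equal parts, a difference of median standard error had to reach 1.92 to pass in the dimmest part, 1.19 in the middle part and 0.82 in the brightest part, which had a median signal of 475. In simulated data with the spread of these arrays, 66 of 100 probe sets changed by 1 on the log2 scale and 95 of 100 changed by 2 were called, with 10 unchanged probe sets. Having that many changed probe sets eases the adjusted threshold, and the simulated noise was independent for each probe set. These shares can therefore overstate what would pass in the real comparison, where 3 did. By the sizes needed in the 3 parts, a change well under 0.82 in a bright forebrain transcript would mostly have gone uncalled. The genes below that did not pass are given as values.

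**Figure D2:**
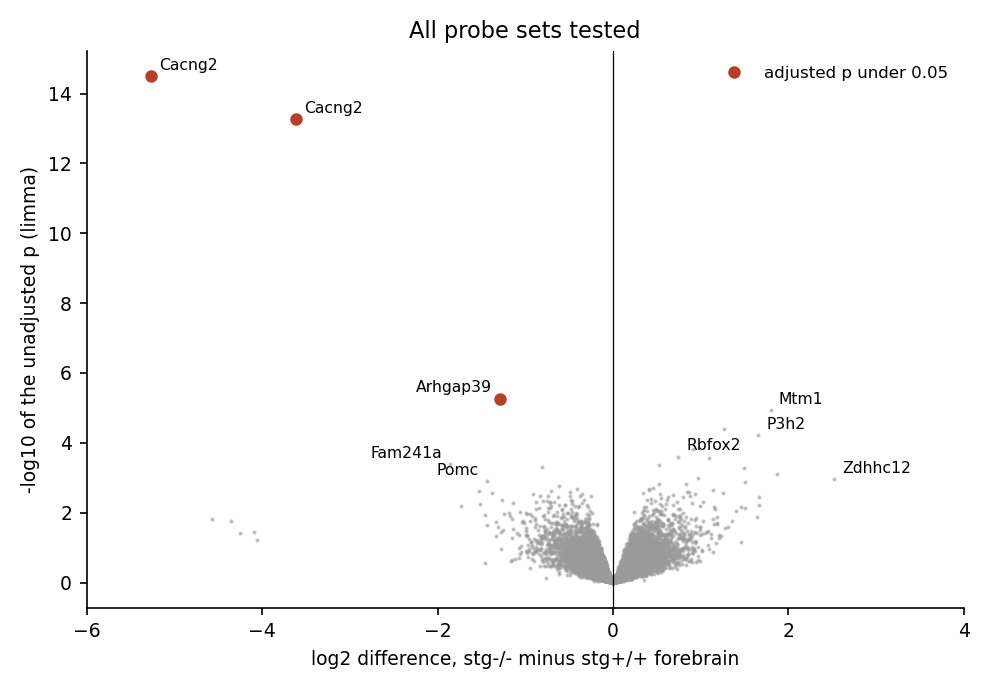
Each of the 27022 probe sets tested, with the log2 difference of stg-/- minus stg+/+ forebrain on the horizontal axis and -log10 of limma's unadjusted p on the vertical axis. The 2 Cacng2 probe sets stand at -5.26 and -3.61 above everything else, Arhgap39 is the third red point at -1.28, and the 5 grey points near -4 to -5 with low values on the vertical axis follow 2 of the 3 stg+/+ arrays.

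The third probe set that passed is annotated to Arhgap39, a gene that lies 25 genes from Cacng2 on chromosome 15. It had 192, 222 and 149 in stg-/- forebrain, against 427, 417 and 527 in stg+/+ forebrain. The groups did not overlap, and the signal fell by 1.28 (SE 0.20, adjusted p = 0.0488). A second probe set of the gene overlapped with 112, 111 and 128 in stg-/- and 159, 102 and 139 in stg+/+ forebrain, a difference of -0.17 (95% confidence interval -0.84 to 0.50), and another was too dim to be tested. In cerebellum the first probe set had 118 ± 9.15 in stg-/- cerebellum and 290.02 ± 64.9 in stg+/+ cerebellum (SD, n = 3 each), a difference of -1.25 (adjusted p = 0.0386). The second probe set differed by -0.48 in cerebellum and did not pass (adjusted p = 0.433). What follows concerns the first probe set. The forebrain call was near the threshold: with a term for sex the adjusted p was 0.0786, with each of the 6 arrays left out in turn the adjusted p was 0.0652 to 0.309 while the difference stayed between -1.41 and -1.13, and without the 2 arrays of high Gh and Prl it was -1.5 (adjusted p = 0.207).

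Other genes around Cacng2 on chromosome 15 mostly showed no difference of that size. Of the 120 genes measured within 100 genes on each side, 4 were higher and 8 lower in stg-/- forebrain without overlap of the groups (3.59% and 3.87% of all probe sets). The share that was lower is above that of all probe sets. An unadjusted p under 0.05 was found for 11, also a larger share than the 2.55% of all probe sets, and 1, Arhgap39, passed. Whether these shares differ was not tested. The median difference of the 120 genes was -0.0058. Rbfox2, a splicing regulator of neurons 16 genes from Cacng2, had 482, 446 and 575 in stg-/- forebrain, against 258, 351 and 286 in stg+/+ forebrain at the probe set of lowest p, with no overlap and a difference of 0.75 (adjusted p = 0.798). Its other 3 probe sets differed by 0.0015, 0.064 and -0.29 with overlapping groups. In cerebellum the same probe set passed at 0.86 (adjusted p = 0.00626). Next to Cacng2, Ift27, part of the transport train of cilia, had 198, 219 and 205 in stg-/- forebrain, against 293, 266 and 263 in stg+/+ forebrain. Sstr3, a somatostatin receptor of neuronal cilia 13 genes from Cacng2, had 60.5, 70.6 and 66.2 in stg-/- forebrain, against 119, 90.7 and 73.8 in stg+/+ forebrain. Neither group overlapped with its counterpart, and the differences of -0.39 for Ift27 and -0.48 for Sstr3, which was -0.16 without the 2 arrays of high Gh and Prl, did not pass (adjusted p = 0.99997 and 0.99997). Pvalb, which encodes parvalbumin of fast-spiking interneurons and lies among these neighbours, had 879.7, 732 and 814 in stg-/- and 944, 709 and 789.6 in stg+/+ forebrain, a difference of -0.0040. The remaining 12 of the 16 nearest measured genes overlapped between the groups, with differences between -0.13 and 0.13.

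Among the rises, Mtm1 came closest to the threshold. Mtm1 encodes myotubularin, a phosphoinositide phosphatase. Its first probe set had 277, 203 and 345 in stg-/- forebrain, against 60.7, 63.1 and 109.9 in stg+/+ forebrain, a difference of 1.80 (SE 0.30, adjusted p = 0.0781). A second probe set had 654, 445 and 651 in stg-/- forebrain, against 315, 279 and 322 in stg+/+ forebrain, a difference of 0.91 (adjusted p = 0.597). Neither overlapped between the groups, and the third was also higher without overlap but by only 0.32. In cerebellum the first 2 passed, at 2.41 (adjusted p = 0.000143) and 1.53 (adjusted p = 0.002). The forebrain difference of the first passed with a term for sex (adjusted p = 0.00575) and without stg+/+ replicate 3 (2.06, adjusted p = 0.0421), and it was 1.26 without the 2 arrays of high Gh and Prl.

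The other rises were taken by lowest p among genes whose groups did not overlap, and none of them passed. A probe set with no single gene symbol here came before them, at 1.27 (adjusted p = 0.217). P3h2, a collagen prolyl hydroxylase, had 36.3, 53.6 and 30.4 in stg-/- forebrain, against 11.2, 7.17 and 13.5 in stg+/+ forebrain, a difference of 1.66 (adjusted p = 0.273), against -0.28 in cerebellum. Cdh7, a cadherin of neurons, had 41.1, 55.3 and 44.9 in stg-/- forebrain, against 14.8, 21.6 and 34.4 in stg+/+ forebrain at 1 probe set, a difference of 0.97 (adjusted p = 0.99997), or 0.41 without the 2 arrays of high Gh and Prl. Its cerebellum difference passed at 1.37 (adjusted p = 2.57e-05), whereas 2 further probe sets of the gene differed by -0.052 and 0.22 in forebrain. Zdhhc12, a palmitoyltransferase, had the largest difference among these rises at 2.52, with 165, 94.7 and 79.2 in stg-/- and 21.7, 15.8 and 12.5 in stg+/+ forebrain, and a standard error of 0.65. Anp32a, Supt20, Smyd4, Slc35f5, Sccpdh and the mitochondrial ribosomal protein genes Mrpl44 and Mrps34 completed the 12, with differences between 0.41 and 1.5 at the probe set of lowest p. Supt20, at 1.5, was 2.48 without the 2 arrays. Several of these genes had probe sets that did not share the rise. The brightest probe set of Anp32a differed by -0.094 and that of Supt20 by 0.0087, the other 3 of Mrpl44 by -0.22, -0.071 and -0.0083, and the other of Smyd4 by 0.015, all with overlapping groups.

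The falls of lowest p after Cacng2 and Arhgap39 belonged to genes of many kinds, and none of them passed. Fam241a had 11.7, 4.46 and 25.1 in stg-/- forebrain, against 56.0, 33.6 and 64.5 in stg+/+ forebrain, a difference of -1.86. Hbb-b2, a beta globin of red blood cells, had 3.91, 14.1 and 36.9 in stg-/- forebrain, against 49.6, 45.2 and 41.4 in stg+/+ forebrain, a difference of -1.53, which lay between -2.15 and -0.88 with single arrays left out. Pomc, the precursor of ACTH and beta-endorphin that both the pituitary and the hypothalamus make, had 66.9, 37.6 and 127 in stg-/- forebrain, against 299.9, 138 and 168 in stg+/+ forebrain, a difference of -1.44, and -1.25 without the 2 arrays of high Gh and Prl. Ankrd35, Mrps5, Ubqln4, Brca2, Cbx7, Emilin2 and Sema7a, a semaphorin, completed the 12 with differences between -0.92 and -0.35. Mrps5 is among them through a probe set at -0.61, but another of its probe sets was higher without overlap, at 0.52. Cbx7, a Polycomb protein, lies 58 genes from Cacng2 on chromosome 15 and differed by -0.49. A second probe set of Cbx7 had 12.6, 13.1 and 9.11 in stg-/- forebrain, against 35.0, 21.6 and 72.5 in stg+/+ forebrain, a difference of -1.51 without overlap that did not pass, and it passed in cerebellum at -1.73 (adjusted p = 0.00699). Of the 24 genes with the lowest p in both directions, 23 were measured in cerebellum, where 15 had the same sign and 5 passed with it at the probe set that was chosen (1.3% of all probe sets passed there), namely Cacng2, Arhgap39, Mtm1, Rbfox2 and Cdh7.

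**Figure D3:**
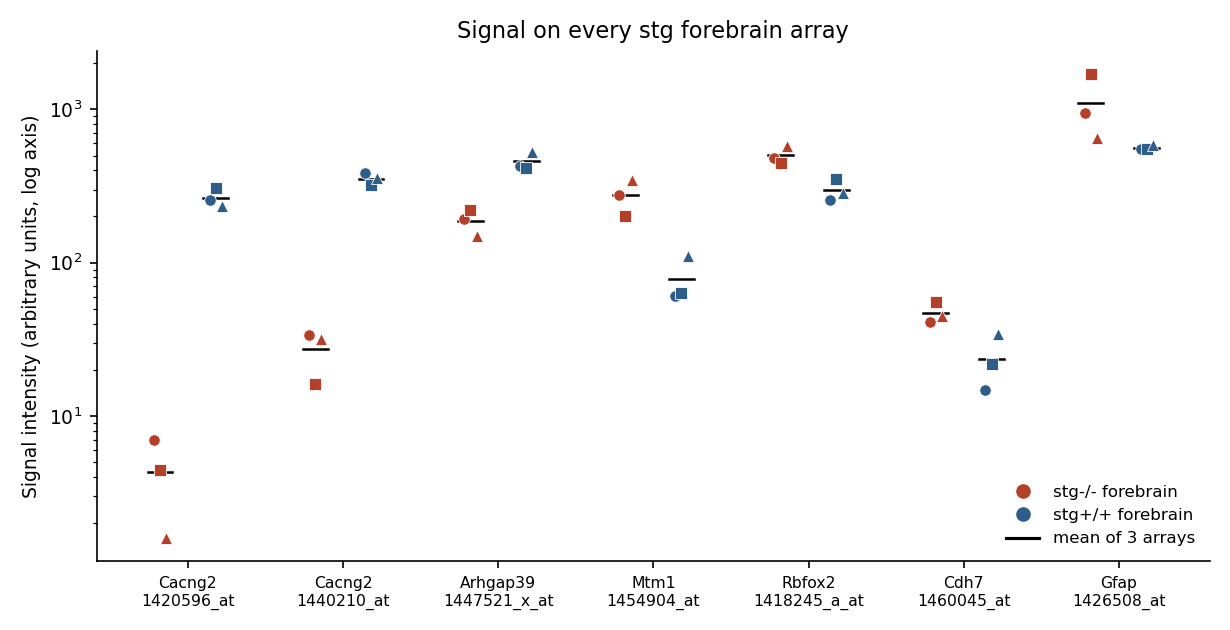
Signal of Cacng2 (2 probe sets), Arhgap39, Mtm1, Rbfox2, Cdh7 and Gfap on each stg forebrain array, in arbitrary intensity units on a log axis, with the bar at the mean of 3 arrays. The stg-/- arrays lie below all stg+/+ arrays for Cacng2 and Arhgap39 and above all of them for the other 4 genes. Within stg-/- forebrain Gfap runs from 652 to 1704.

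The AMPA receptors that stargazin serves were measured at high signal and did not pass at any of their 4 subunits. Gria1 had 1056, 1022 and 933 in stg-/- forebrain, against 1042, 1081 and 1003 in stg+/+ forebrain, a difference of -0.056 (95% confidence interval -0.26 to 0.15). Gria2, the subunit that sets calcium permeability, had 2455, 2310.4 and 1966 in stg-/- forebrain, against 2227, 2656 and 2372 in stg+/+ forebrain, a difference of -0.11 (-0.31 to 0.087). Gria3 had 1171, 1337 and 966 in stg-/- forebrain, against 1262, 1265 and 1269.8 in stg+/+ forebrain, a difference of -0.14 (-0.52 to 0.24). These 3 overlapped between the groups. Gria4, which thalamic reticular and relay neurons use and whose loss in mice also gives absence seizures, had 627, 584 and 609.6 in stg-/- forebrain, against 738, 661 and 679.5 in stg+/+ forebrain. The Gria4 groups did not overlap, but the difference of -0.19 (-0.42 to 0.037) did not pass. All 4 subunits lay below 0, with a median of -0.13 beside 0.0019 for all probe sets, and the median was between -0.17 and -0.017 with single arrays left out.

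Of 22 measured TARPs and AMPA receptor partners 6 lay above 0 and 16 below, and Cacng2 itself was the 1 that passed. Cacng3, the closest relative of Cacng2, had 419, 423 and 343 in stg-/- forebrain, against 349, 455 and 346 in stg+/+ forebrain, a difference of 0.048 (95% confidence interval -0.32 to 0.42). Cacng8, the TARP of hippocampus, was dim, with 58.8, 32.3 and 50.8 in stg-/- and 77.1, 49.4 and 47.9 in stg+/+ forebrain and a wide interval of -1.0 to 0.43. Cacng4 differed by -0.21 and Cacng7 by -0.31, and both had the opposite sign without the 2 arrays of high Gh and Prl (0.35 and 0.052). Cacng5 differed by -0.028. The groups of all 5 overlapped. Among the auxiliary subunits outside the TARP family, Cnih2 differed by 0.076, Cnih3 by -0.061, Gsg1l by -0.026 and Shisa7 by -0.13 (0.034 without those arrays). The scaffolds that anchor TARPs at the synapse were likewise within the spread of the arrays, with Dlg4, which encodes PSD-95, at -0.029, Dlg2 at -0.23 (-0.014 without those arrays) and Dlg3 at -0.23 (95% confidence interval -0.46 to 0.0042). The median of the list turned to 0.043 without the 2 arrays of high Gh and Prl, with 12 members above 0.

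Among the NMDA, kainate and delta receptors 2 of 11 measured members lay above 0 and 9 below, with a median of -0.15, and none passed. Grin2b had 381, 502 and 467 in stg-/- forebrain, against 511, 542 and 525 in stg+/+ forebrain, a difference of -0.23, and Grid1 had 231, 210.1 and 212 in stg-/- forebrain, against 238, 279.6 and 234 in stg+/+ forebrain, a difference of -0.20. Neither overlapped between the groups. The median of this list was -0.0035 without stg-/- replicate 3, and -0.088 with 4 members above 0 and 7 below without the 2 arrays of high Gh and Prl, where Grid1 was at -0.11. The metabotropic receptors and their Homer scaffolds were split 5 above to 4 below, with Grm5 at -0.16, or -0.25 without those arrays.

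Of the voltage-gated calcium channel subunits other than TARPs, 5 of 14 measured lay above 0 and 9 below, and none passed. Cacna1g, the T-type channel that drives burst firing of thalamic relay cells, had the lowest p of the list. It had 192, 181 and 181 in stg-/- forebrain, against 153, 143 and 101 in stg+/+ forebrain, without overlap, a difference of 0.50 (95% confidence interval 0.092 to 0.90, adjusted p = 0.99997). Without the 2 arrays of high Gh and Prl it was 0.86. Cacna1c had 123, 108 and 127 in stg-/- and 150.3, 132 and 133 in stg+/+ forebrain and Cacna2d3 679, 726 and 670.4 in stg-/- and 756, 749.7 and 733 in stg+/+ forebrain, both lower without overlap, at -0.21 and -0.11. Cacna1d differed by -0.11 in forebrain (-0.41 without those arrays) and rose by 0.79 in cerebellum, and the difference between the tissues passed (-0.90, adjusted p = 0.0409).

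Of 23 sodium, potassium and HCN channels measured 5 lay above 0 and 18 below, with a median of -0.072, and 10 above and 13 below without the 2 arrays of high Gh and Prl. Kcnj6, the GIRK2 channel that G proteins open, had 34.7, 33.4 and 43.0 in stg-/- forebrain, against 53.7, 64.0 and 75.3 in stg+/+ forebrain, without overlap, a difference of -0.75 (adjusted p = 0.99997), and -0.98 without the 2 arrays of high Gh and Prl. Scn4b, a sodium channel beta subunit that striatal neurons express, differed by -0.28 with overlapping groups, and by -0.040 without those arrays. The GABA receptor, synthesis and transport genes lay 5 above and 10 below 0 with a median of -0.053, and 7 above and 8 below without those arrays. Gabra4, a subunit of extrasynaptic receptors in thalamus and striatum, had 781, 756 and 759.6 in stg-/- forebrain, against 787, 839 and 829.9 in stg+/+ forebrain, a difference of -0.10 without overlap. No gene of either list passed.

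Genes of the synaptic vesicle and of release lay 7 above and 17 below 0 of 24 measured, with a median of -0.070. Syn2, a synapsin that tethers vesicles, had 1962, 1823 and 1566 in stg-/- forebrain, against 1516, 1167 and 1525 in stg+/+ forebrain, without overlap, a difference of 0.35 (adjusted p = 0.99997). Unc13a, the priming factor Munc13-1, had 282, 222 and 241 in stg-/- and 360.3, 316 and 278 in stg+/+ forebrain, a difference of -0.35. Without the 2 arrays of high Gh and Prl the list was split 12 to 12, with Syn2 at 0.22 and Unc13a at -0.17.

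No member passed among the activity-regulated genes, which neurons switch on soon after firing. Of 27 measured 10 lay above 0 and 17 below, with a median of -0.033, and the median lay between -0.20 and 0.10 with single arrays left out and at -0.15 without the 2 arrays of high Gh and Prl. Egr1 had 1734, 1334 and 2152 in stg-/- forebrain, against 2138, 1907 and 2018 in stg+/+ forebrain, a difference of -0.24. Ier2 had 111, 80.6 and 113 in stg-/- forebrain, against 136, 115 and 138 in stg+/+ forebrain, without overlap, and Per2 126, 108 and 130.4 in stg-/- forebrain, against 104, 98.1 and 89.7 in stg+/+ forebrain, also without overlap but in the other direction. Their differences of -0.35 for Ier2 and 0.31 for Per2 did not pass. Bdnf, the neurotrophin whose transcript follows activity, had 201, 186 and 267 in stg-/- forebrain, against 136, 129.5 and 191 in stg+/+ forebrain, a difference of 0.52 (95% confidence interval 0.11 to 0.93, adjusted p = 0.99997) with overlapping groups, and it was 0.17 (SE 0.27) without the 2 arrays of high Gh and Prl. In stg cerebellum Bdnf had 19.0 ± 13.0 in stg-/- cerebellum and 105 ± 40.9 in stg+/+ cerebellum (SD, n = 3 each) and fell by 2.44 (adjusted p = 0.000713). The forebrain difference minus the cerebellum difference was 2.96 (SE 0.42, adjusted p = 0.000141), and this test passed.

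Most genes of the neuropeptide list lay on the high side in stg-/- forebrain. Of 19 measured 17 were above 0 and 2 below, with a median of 0.11 beside 0.0019 for all probe sets, although no member passed. The list leaves out precursors that stand on the pituitary or hypothalamus lists. Among these are Pomc at -1.44, Oxt at -0.092, Avp at 0.88 and Hcrt at 0.16. Cartpt, the CART peptide of hypothalamus and accumbens, had 299, 291 and 326 in stg-/- forebrain, against 237, 211 and 185 in stg+/+ forebrain, a difference of 0.53 (95% confidence interval 0.21 to 0.86, adjusted p = 0.99997). Trh, thyrotropin-releasing hormone, had 55.3, 52.8 and 63.6 in stg-/- forebrain, against 37.5, 27.8 and 29.9 in stg+/+ forebrain, a difference of 0.80 (0.30 to 1.30). Neither overlapped between the groups. Pdyn, prodynorphin, had 75.6, 103 and 113 in stg-/- forebrain, against 59.1, 70.6 and 82.4 in stg+/+ forebrain, with overlap, a difference of 0.44, or 0.21 without the 2 arrays of high Gh and Prl. Tac1, the substance P precursor of striatal neurons, had 986, 907 and 1108 in stg-/- forebrain, against 859, 888 and 851 in stg+/+ forebrain, and Cck, cholecystokinin, 2147, 2077 and 2081 in stg-/- forebrain, against 1895, 2031 and 1911 in stg+/+ forebrain. Both were higher without overlap by small amounts, 0.20 for Tac1 and 0.11 for Cck.

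The remaining neuropeptides ran from Npy at 0.31, Nts at 0.17, Crh at 0.16, Vip at 0.14 and Penk at 0.13 to Pnoc at 0.076, Sst at 0.071, Nppc at 0.063, Gal at 0.060, Adcyap1 at 0.027, Tac2 at 0.024 and Nmb at 0.019. Those below 0 were Cbln4 at -0.080 and Grp, gastrin-releasing peptide, at -0.22. Grp alone was lower without overlap, with 178, 163 and 183 in stg-/- and 195, 186 and 231 in stg+/+ forebrain. Without the 2 arrays of high Gh and Prl 15 members were above 0 and 4 below, with a median of 0.21, Cartpt at 0.71, Trh at 0.87, Npy at 0.47, Vip at 0.37, Penk at 0.26, Crh at 0.057 and Grp at -0.40. The granins and other cargo of dense-core vesicles lay 9 above and 5 below 0. Chga, chromogranin A, had 751, 901 and 734 in stg-/- forebrain, against 714, 668 and 555 in stg+/+ forebrain, without overlap, a difference of 0.30, or 0.51 without those arrays.

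Some of these peptides mark the hypothalamus, whose share of a forebrain sample depends on the dissection. In bulk tissue fewer cells of a type and less RNA per cell cannot be told apart. Avp, vasopressin, had 186, 208 and 447 in stg-/- forebrain, against 139.9, 125 and 154 in stg+/+ forebrain, without overlap, a difference of 0.88 (95% confidence interval 0.33 to 1.43). The 13 hypothalamic genes summed to 1502, 1313 and 1800 in stg-/- forebrain, against 1331, 1409 and 1228 in stg+/+ forebrain, and these ranges overlapped. Oxt, oxytocin, differed by -0.092 and Hcrt, hypocretin, by 0.16 (0.40 without the 2 arrays of high Gh and Prl). With single arrays left out Avp lay between 0.49 and 1.12. The part of hypothalamic tissue in the neuropeptide values was not tested.

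**Figure D4:**
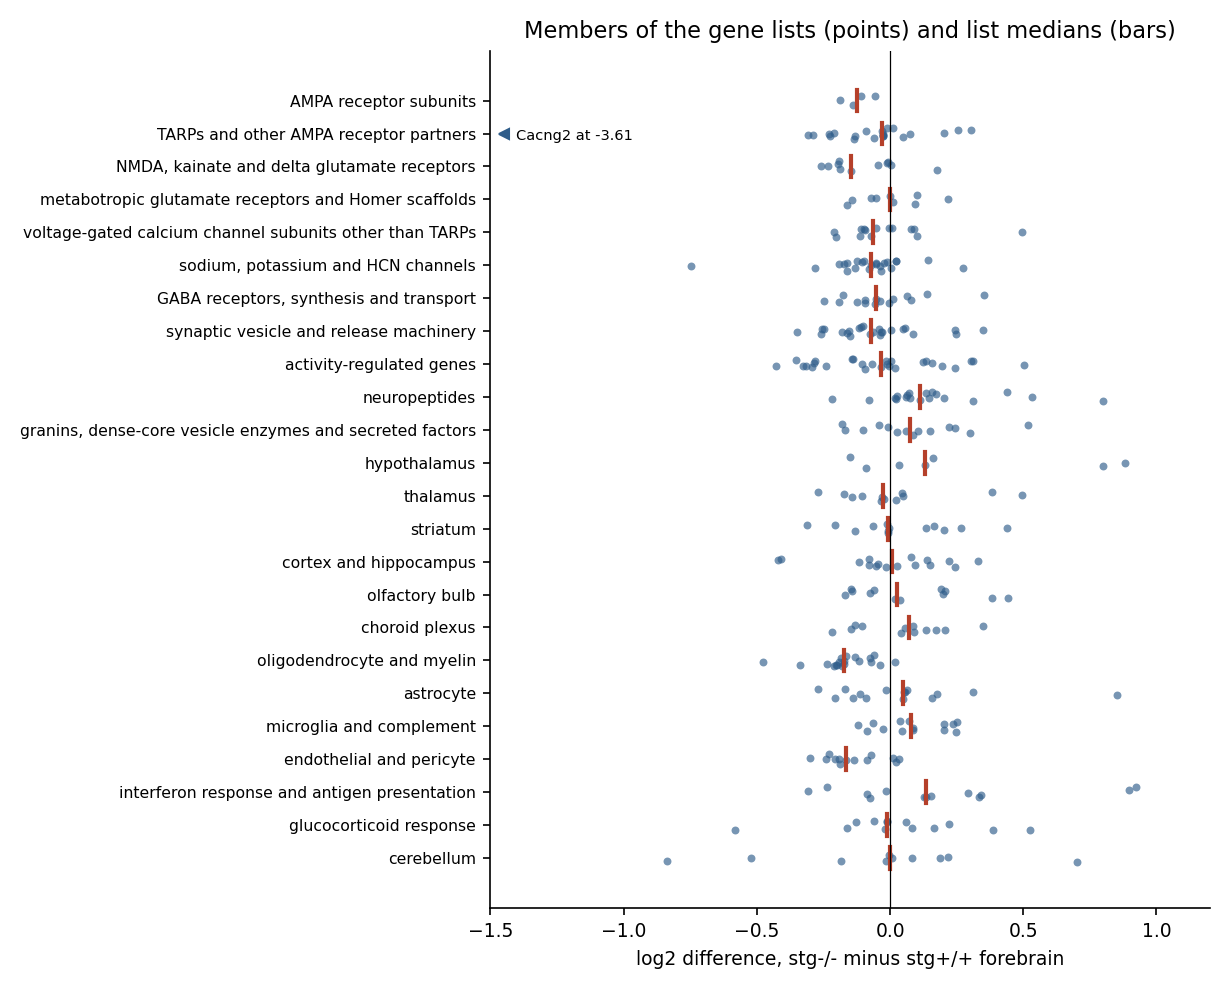
Log2 difference of stg-/- minus stg+/+ forebrain for each measured gene (points) of 24 lists, with the list median as a red bar; Cacng2 lies off the scale at -3.61. Most medians lie within 0.1 of 0, those of the neuropeptide, hypothalamus and interferon lists lie further above it, and those of the oligodendrocyte, endothelial, NMDA receptor and AMPA receptor lists further below it. The interferon median was -0.045 without the 2 stg+/+ arrays of high Gh and Prl.

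Markers of cortex, hippocampus and striatum were present as the tissue label says, and their sums overlapped between the genotypes. The 16 cortical and hippocampal genes summed to 8823, 9139.99 and 8786 in stg-/- forebrain, against 8972, 8796 and 8557 in stg+/+ forebrain, and the 13 striatal genes to 7659.9, 6963 and 8141 in stg-/- forebrain, against 7329, 7438 and 7042 in stg+/+ forebrain. In the cerebellum arrays of the stg line the same 2 sums reached at most 3262 and 2458. The 13 thalamic genes summed to 4393, 4333 and 4692 in stg-/- forebrain, against 4668, 4260 and 4392 in stg+/+ forebrain. That list does not set forebrain apart, since it summed to between 7341 and 9170 on the stg cerebellum arrays. The olfactory bulb list was also brighter there, at 10557 or above, against 8815 or below on the stg forebrain arrays. Of the 12 thalamic genes measured 5 lay above 0 and 7 below, with a median of -0.026. Among them Calb2, calretinin, had 633, 676 and 686 in stg-/- forebrain, against 578, 429 and 532 in stg+/+ forebrain, without overlap, a difference of 0.38. Calb2 is also on the olfactory bulb list, and it had 2449 or above on the stg cerebellum arrays. Adarb1 of the thalamus list differed by -0.27 with overlapping groups. The cortical and hippocampal genes were split 8 above to 8 below 0. Lamp5, a membrane protein of cortical neurons and interneurons, had 1111, 1064 and 848 in stg-/- forebrain, against 1501, 1313 and 1192 in stg+/+ forebrain, without overlap, a difference of -0.41 (adjusted p = 0.99997), or -0.25 without the 2 arrays of high Gh and Prl. Wfs1 of the same list differed by 0.33 with overlapping groups. Fabp7, the brain lipid-binding protein of glia and of the olfactory bulb, had 1175, 1768 and 1905 in stg-/- forebrain, against 1322, 1021 and 1169 in stg+/+ forebrain, with overlap, a difference of 0.44. Of the 12, 13, 16 and 12 genes measured from the thalamus, striatum, cortex and olfactory bulb lists, none passed.

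Gfap, the intermediate filament that astrocytes make more of when they react to injury or seizures, had 949.9, 1704 and 652 in stg-/- forebrain, against 554, 556 and 582 in stg+/+ forebrain, a difference of 0.85 (SE 0.24, adjusted p = 0.99997). All 3 stg-/- arrays lay above the stg+/+ arrays, and stg-/- replicate 2 stood highest. Without that array the difference was 0.48, and without stg-/- replicate 3 it was 1.17. The 2 further Gfap probe sets overlapped between the groups and differed by 0.79 and 0.83. The cerebellum difference of the first probe set was 0.93 and passed (adjusted p = 0.0283). Of the 15 astrocyte genes measured, Gfap included, 8 lay above 0 and 7 below. Slc1a2, the main glutamate transporter, had 4306, 3518 and 4091 in stg-/- and 5416, 3741 and 5376 in stg+/+ forebrain, a difference of -0.27, and Slc1a3 differed by -0.21. These were -0.44 and -0.076 without the 2 arrays of high Gh and Prl.

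Oligodendrocyte genes were on the low side. Of 19 measured 1 lay above 0 and 18 below, with a median of -0.17, and none passed. Mbp, myelin basic protein, had 10033, 9872 and 9699 in stg-/- forebrain, against 10353, 12489.6 and 10924 in stg+/+ forebrain, without overlap, a difference of -0.19 (95% confidence interval -0.40 to 0.025). Mobp, another myelin protein, differed by -0.17 (-0.010 without the 2 arrays of high Gh and Prl), and Pdgfra, the receptor of oligodendrocyte precursors, had 301, 271 and 306 in stg-/- and 319.6, 343 and 356 in stg+/+ forebrain, a difference of -0.21. Without the 2 arrays of high Gh and Prl the median was -0.054, with 5 members above 0 and 14 below. The endothelial and pericyte genes were 3 above and 10 below 0 with a median of -0.16, and -0.091 without those arrays. The microglia and complement genes were 10 above and 4 below 0 with a median of 0.078, and they split 7 to 7 without them. The choroid plexus genes were 8 above and 4 below 0, with Ttr, transthyretin, at -0.15, or -0.23 without them.

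Interferon-response genes were 8 above and 5 below 0 of 13 measured, with a median of 0.13 and Ifi27 at 0.29 with overlapping groups. Without the 2 arrays of high Gh and Prl they were 5 above and 7 below, with a median of -0.045 and Ifi27 at 0.092. The median was 0.0024 without stg+/+ replicate 1. Oas1a and Oasl2, interferon-induced genes chosen for mention after their values were seen, differed most. Oas1a had 74.9, 36.1 and 69.8 in stg-/- forebrain, against 54.6, 53.0 and 7.10 in stg+/+ forebrain, a difference of 0.92. Oasl2 had 33.5, 37.4 and 28.1 in stg-/- forebrain, against 27.8, 34.0 and 3.26 in stg+/+ forebrain, a difference of 0.90. Both groups overlapped, and stg+/+ replicate 3 was the low array of each. Without the 2 arrays of high Gh and Prl the differences of Oas1a and Oasl2 were 2.59 and 2.52, and without stg+/+ replicate 3 they were 0.091 and 0.084. Among genes that glucocorticoids induce, Ddit4 had 517, 418 and 497 in stg-/- forebrain, against 342, 403 and 348 in stg+/+ forebrain, a difference of 0.38, and Sgk1, a kinase, had 1116, 1049.7 and 1429 in stg-/- forebrain, against 790.1, 718 and 987 in stg+/+ forebrain, a difference of 0.52, or 0.26 without the 2 arrays. Both were higher without overlap and did not pass (adjusted p = 0.99997 and 0.99997). Pdk4, which shuts off pyruvate oxidation, went the other way without overlap, with 98.6, 85.3 and 69.3 in stg-/- forebrain, against 123, 110.3 and 148 in stg+/+ forebrain, a difference of -0.58. The list as a whole was split 6 above to 7 below 0, and 10 to 3 without the 2 arrays.

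The forebrain was then read at the probe sets that passed in stg cerebellum, where 352 did (1.3%). Of these 323 were bright enough in forebrain. Of the 140 that rose in cerebellum, with a median of 0.76, 82 lay above 0 in forebrain, with a median of 0.029. Of the 183 that fell in cerebellum, with a median of -0.76, 97 lay below 0 in forebrain, with a median of -0.011. Over all probe sets tested 50.4% lay above 0 and 49.6% below. With the cerebellar sign, 18 of the 323 had an unadjusted p under 0.05 in forebrain and 28 had no overlap. Over all 27022 probe sets, 364 were higher and 326 lower at that p, and 3.59% were higher and 3.87% lower without overlap. Of the 323, 3 passed in forebrain (2 of Cacng2 and 1 of Arhgap39). At 63 the difference between the tissues itself passed, of 67 that passed that test over all probe sets (0.248%). That test uses the cerebellum arrays by which these probe sets were chosen. The 2 comparisons share no array.

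**Figure D5:**
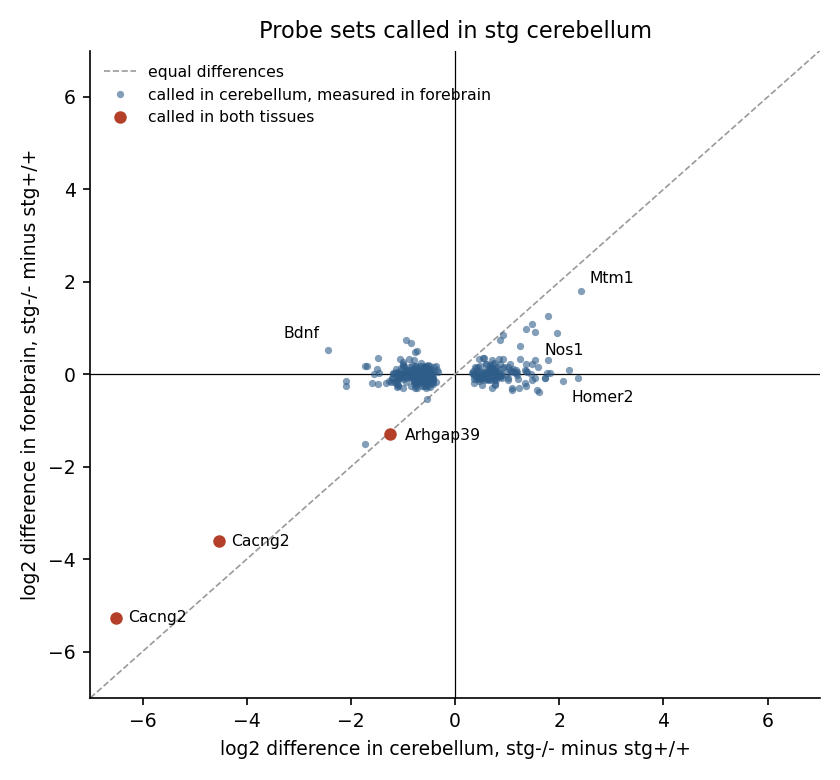
The 323 probe sets that passed in stg cerebellum and were measured in forebrain, with the log2 difference of stg-/- minus stg+/+ in cerebellum on the horizontal and in forebrain on the vertical axis. Most of the cloud lies near 0 on the forebrain axis, and the Cacng2, Arhgap39 and Mtm1 points lie near the dashed line of equal differences.

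The genes of lowest p in cerebellum are given next with their forebrain values. Nos1, neuronal nitric oxide synthase, averaged 1397 ± 95 in stg-/- cerebellum and 459.7 ± 12.9 in stg+/+ cerebellum (SD, n = 3 each), and 309.6 ± 22.5 in stg-/- and 278 ± 30.3 in stg+/+ forebrain. Its differences were 1.60 in cerebellum and 0.15 in forebrain (95% confidence interval -0.11 to 0.42), the last at -0.019 without the 2 arrays of high Gh and Prl. Ncald, the calcium sensor neurocalcin delta, averaged 244 ± 33.8 in stg-/- cerebellum and 727 ± 82.3 in stg+/+ cerebellum, and 1559 ± 98.1 in stg-/- and 1556 ± 184 in stg+/+ forebrain, with differences of -1.57 in cerebellum and 0.0079 in forebrain (-0.21 to 0.23). Sox4, a transcription factor of immature neurons, averaged 596 ± 98.4 in stg-/- cerebellum and 229.6 ± 10.4 in stg+/+ cerebellum, and 601 ± 101 in stg-/- and 571 ± 27.1 in stg+/+ forebrain. In stg-/- cerebellum Sox4 stood at about the level of either forebrain group. Adamts10, a secreted protease, differed by -1.13 in cerebellum, where it passed, and by 0.12 in forebrain. Homer2, a scaffold of metabotropic glutamate receptors, rose by 2.07 in cerebellum and differed by -0.15 in forebrain. Kcnk2, the potassium channel TREK-1, rose by 1.35 in cerebellum and differed by -0.20 in forebrain (0.13 without those arrays). Vsnl1, a calcium sensor, and Sphkap differed by -1.07 and -0.80 in cerebellum, where both passed, and by 0.036 and -0.022 in forebrain. At each of these 8 genes the difference between the tissues passed, but that test uses the cerebellum arrays by which they were chosen. Camk4, a calcium-dependent kinase, differed by -0.29 in forebrain with overlapping groups (-0.57 to -0.00043), where it was -0.091 without those arrays, and by -0.76 in cerebellum, where it passed, and the difference between the tissues did not pass (adjusted p = 0.354). Mapk13 and Aqp6, which changed most in cerebellum among the 12 of lowest p after Cacng2, were too dim in forebrain to be tested. Scn3b, a sodium channel beta subunit taken by its low p for the difference between tissues, averaged 182 ± 20.1 in stg-/- cerebellum and 50.9 ± 14.9 in stg+/+ cerebellum, and 776 ± 60.7 in stg-/- and 764 ± 37.3 in stg+/+ forebrain.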

How the data were processed

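Expression was read on 36 1-colour Affymetrix arrays of 45101 probe sets. The authors deposited an intensity on a linear scale for each probe set of each array. The sources used here do not give how scans were turned into these values. Each array's mean after trimming 2% at each end was 150. Detection calls were not used, which leaves the detection limit unknown, and the number of arrays limits the precision.

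Log2 of the signal plus 2.98, the 10th percentile of all values, was taken after 64 control probe sets were left out. The constant shrinks the differences of dim probe sets. Each fit used the 27022 probe sets whose mean over its arrays exceeded the 40th percentile. A limma (3.58.1, R 4.3.3) model of group means was fitted to the 18 arrays of a tissue, or to all 36 for the difference between tissues, using an intensity trend. Tests were moderated and two-sided, p-values were adjusted by Benjamini-Hochberg over all probe sets in the fit, and the threshold was 0.05. Differences are stg-/- minus stg+/+.

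Symbols came from the platform's annotation, where 34958 probe sets had 1 symbol, 932 several and 9211 none, and 34754 matched the RefSeq table of GRCm38.p6, from which gene order was taken. Lists represent a gene by its brightest probe set and are described by counts and medians, with no set test. Named genes are those of Cacng2, those called, the 12 rises and 12 falls of lowest p without overlap, up to 4 per list (all of the AMPA receptor, neuropeptide and pituitary lists), the 12 genes of lowest p in cerebellum, 8 for each difference between lines or tissues, and 8 neighbours on each side. The genes and lists were chosen with earlier results of these data known. The fits were tested on simulated data of 27022 probe sets. Other filters, constants, normalization, trend, array weights, sex terms and left-out arrays were tried, and their effect is given with the closing results.

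Forebrain replicate numbers are names given in accession order, except for 1 array, and were not used to pair arrays. Cerebellum numbers come from the labels. Deviations from the group mean were correlated between same-numbered mutant and +/+ cerebellum arrays. The correlations were 0.156, 0.188 and 0.380 in the stg line, 0.0404 to 0.292 in tg and 0.0948 to 0.333 in lh. Arrays of different numbers were not compared in this way, and the labels state no pairing.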

Additional observations from a re-analysis of the deposited data

Results flagged for a closer look

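Each result here is a difference that itself passed a limma test, between lines or between tissues. Most genes of the tissue test were chosen by low p in cerebellum or in that test itself, which uses the same cerebellum arrays. Between lines, the stg difference of Cacng2 minus the mean of the tg and lh differences was -5.15 and -3.60 at its 2 probe sets (adjusted p = 4.54e-09 and 2.69e-08).

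Between tissues, the forebrain difference minus the cerebellum difference was positive where a gene fell in cerebellum and was near 0 in forebrain. Ncald gave 1.57, Vsnl1 1.11, Sphkap 0.78 and Adamts10, a secreted protease, 1.24. Bdnf gave 2.96, with 0.52 in forebrain and -2.44 in cerebellum.

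It was negative where a gene rose in cerebellum. Kcnk2 gave -1.54, Nos1 -1.44, Sox4 -1.29, Scn3b -1.79, Inf2, a formin, -1.80, Igsf3 -1.62 and Cacna1d -0.90. Homer2 gave -2.22 and -2.09 at its 2 probe sets. The adjusted p of these tissue differences ran from 1.02e-06 for Ncald to 0.0409 for Cacna1d. In forebrain the genes of this paragraph each had a difference between -0.20 and 0.15.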

How the results depend on the processing

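Under no filter, a stricter filter, quantile normalization, constants of 1 and 16, no trend, the 6 arrays alone and a sex term, 2 to 4 probe sets were called in stg forebrain. Array weights gave 5. Without the 2 stg+/+ arrays of high Gh and Prl 8 were called in stg forebrain, 8 in the difference between lines and 36 between tissues. Without the lh+/+ array of high Gh and Prl as well, an alternative added after seeing the data, 6 and 5 were called in forebrain and between lines. With single arrays left out the counts were 2 to 3 in forebrain, 2 in each fit between lines and 45 to 68 between tissues. Over the 16 alternatives planned for forebrain the 2 Cacng2 probe sets were called in 16, Arhgap39 in 5 and Mtm1 in 4. Without stg+/+ replicate 2 a probe set of Slc1a2, not the one described above, was called at 1.54.

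Of the named genes and list members, 22 turned their sign under an alternative, leaving out values within 1 SE of 0 in both fits, and none of these was called. Without the 2 arrays of high Gh and Prl these were Nos1 at -0.019, Kcnk2 at 0.13, Inf2 at 0.34, Eif3d at 0.25, Mpst at 0.36, Nptx1 at -0.15, Cacng7 at 0.052, Cacng4 at 0.35, Pick1 at 0.56, Grm8 at -0.027, Scn8a at 0.039, Gabrd at 0.22, Rims1 at 0.025, Ptgs2 at -0.21, Drd2 at 0.024, Pcp4 at 0.074, C1qb at -0.035 and Slco1a4 at 0.037. With single arrays left out Tst ran from -0.18 to 0.13, Pick1 from -0.32 to 0.25, Trhr from -0.43 to 0.025, Pcp4 from -0.30 to 0.017, Cbln1 from -0.013 to 0.53 and Pcp2 from -1.64 to 0.67. The cause was not tested, beyond the loss of arrays itself.

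With the replicate block, 1018 probe sets were called in stg cerebellum, against 352 without it. No paired analysis was possible in forebrain because its replicate numbers are not from the labels.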
